A study of Homo sapiens with 6 samples.

Results

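The class I and class II histone deacetylases were HDAC1 to HDAC10, found by symbol and Ensembl identifier among the genes of a deposited count table. They made up 10 of its 62754 genes. Class I held HDAC1, HDAC2, HDAC3 and HDAC8 (4 genes), class IIa held HDAC4, HDAC5, HDAC7 and HDAC9 (4 genes), and class IIb held HDAC6 and HDAC10 (2 genes). Their RNA was measured by poly(A) RNA-seq in 3 control libraries and 3 libraries of FAM60A-knockout cells. The sample titles give the cells as HEK293, an adherent kidney-derived line of embryonic origin. Another label gives HEK293T, a derivative that carries the SV40 large T antigen. Control cells were grown in the same medium as knockout cells, and the labels describe no vector or guide for them. Knockout cells received Cas9 with several guide RNAs against FAM60A and were selected with puromycin as a pool, so their libraries can mix edited and unedited copies of the gene. The authors checked the knockout by immunoblot and qRT-PCR, which were not analysed here. The labels do not say whether the libraries of a group came from separate cultures. The p-values therefore measure the spread between these libraries, which may be technical.

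Histone deacetylases remove acetyl groups from lysines. The class I enzymes act mainly in the nucleus as the catalytic subunits of corepressor complexes. HDAC1 and HDAC2, close paralogs, serve the Sin3, NuRD, CoREST and MiDAC complexes, HDAC3 serves the NCoR and SMRT complexes, and HDAC8 works outside these complexes on the cohesin subunit SMC3. The class IIa proteins have weak catalytic activity of their own, bind MEF2 transcription factors and shuttle between nucleus and cytoplasm when kinases phosphorylate them. In class IIb, HDAC6 is a cytoplasmic deacetylase of alpha-tubulin and HDAC10 acts on acetylated polyamines. FAM60A, now named SINHCAF, belongs to the Sin3/HDAC complex, and the study asked how its loss alters gene expression.

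Library totals lay between 88361827 and 93346824 counts. Control replicate 3 stood apart from the other two controls. Over 21031 genes with enough counts to compare, it differed by at least 2-fold from control replicates 1 and 2 at 2912 and 2817 genes, whereas those replicates differed from each other at 3 genes. It differed from the knockout libraries at 1253 to 1464 genes, and knockout libraries differed among themselves at 1 or 2. The targeted gene, SINHCAF, had 11028, 10165 and 12792 counts in the control libraries and 5684, 5793 and 5449 in the knockout libraries. This was a log2 fold change of -0.85 (SE 0.11, edgeR quasi-likelihood adjusted p = 0.00863), so SINHCAF RNA remained at 55.5% of the control level. The call held in 9 of 13 alternative fits, whose adjusted p ran from 7.73e-09 to 0.0736. Of the 8 HEK293 markers chosen, none was at 0 in any library and their summed level was 1063 to 1894 CPM (counts per 1000000 counts of TMM-scaled library size) in control and 857 to 992 in knockout libraries. Of these markers 2 were called lower in the knockout, NEFM and INA, and 0 were called higher. Of 6 fibroblast markers, with 1 called lower and 2 higher, the sum was 25.9 to 29.9 CPM in control and 27.8 to 28.6 in knockout libraries. Of 6 epithelial line markers, the sum was 211 to 482 CPM in control and 565 to 592 in knockout libraries, with 0 called by edgeR and 1 at an unadjusted p under 0.05. EPCAM, an epithelial adhesion protein, had counts of 10669, 10521 and 29052 in control libraries and of 37289 to 38691 in knockout libraries. CDH1 had 198, 147 and 1792 counts in control and 2164 to 2474 in knockout libraries. KRT19 and ESR1 of the same list did not rise, each with a log2 fold change of -0.06. Blood cell markers summed to at most 1.81 CPM, with HBB at 0 or 1 count, and of the fibroblast and epithelial markers COL1A2, KRT5 and KRT14 had at most 8 counts in any library. Mitochondrially encoded genes took 4.63%, 3.97% and 5.57% of the counts in controls and 8.70 to 10.1% in knockout libraries. An edgeR fit without the mitochondrial genes called 3 of the 10 deacetylases, and 3481 of 20957 genes tested. Beyond that fit, the part of these differences in the results that follow was not tested.

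Of the 10 deacetylases, 3 were called at an adjusted p of at most 0.05, and all 3 were lower in the knockout: HDAC5, HDAC6 and HDAC7, the main class II members of these cells. Levels in the knockout were 1.75-fold lower for HDAC5, 1.80-fold lower for HDAC6 and 1.45-fold lower for HDAC7. With edgeR 0 members were called higher. HDAC9 had a positive fold change at an adjusted p of 0.0516, was the fourth member with an unadjusted p under 0.05, and was called higher by DESeq2 and by limma-voom. All 10 passed the filter on low counts, so the 3 calls were 30% of the members, beside 16.6% of the 20992 genes tested in either direction (8.67% lower and 7.96% higher). These tests were edgeR quasi-likelihood F-tests with Benjamini-Hochberg adjustment over those 20992 genes. The median log2 fold change was -0.16 over the members and -0.0081 over all genes tested. Without control replicate 3, 8 members were called, 7 lower and 1 higher, or 80% of the members beside 65.6% of all genes, 33.2% lower and 32.4% higher. The median over the members was then -0.40. DESeq2 and limma-voom each called 4 members. For limma-voom this was beside 17.2% of the 20992 genes, and the fit with the replicate number as a block called 1, beside 1.94%. DESeq2 was run without the filter on low counts, and its share was 12.9% of 40122 genes. That share is over more genes, many with few counts, and is not comparable with the others. Leaving out control replicate 1 or 2, or knockout replicate 2 or 3, kept 1 call, HDAC6, and leaving out knockout replicate 1 lost all 3. Thus the number of members called turned on single libraries, and each member is given with and without control replicate 3. RNA-seq of bulk cells cannot tell fewer cells that express a gene from less RNA per cell.

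**Figure D1:**
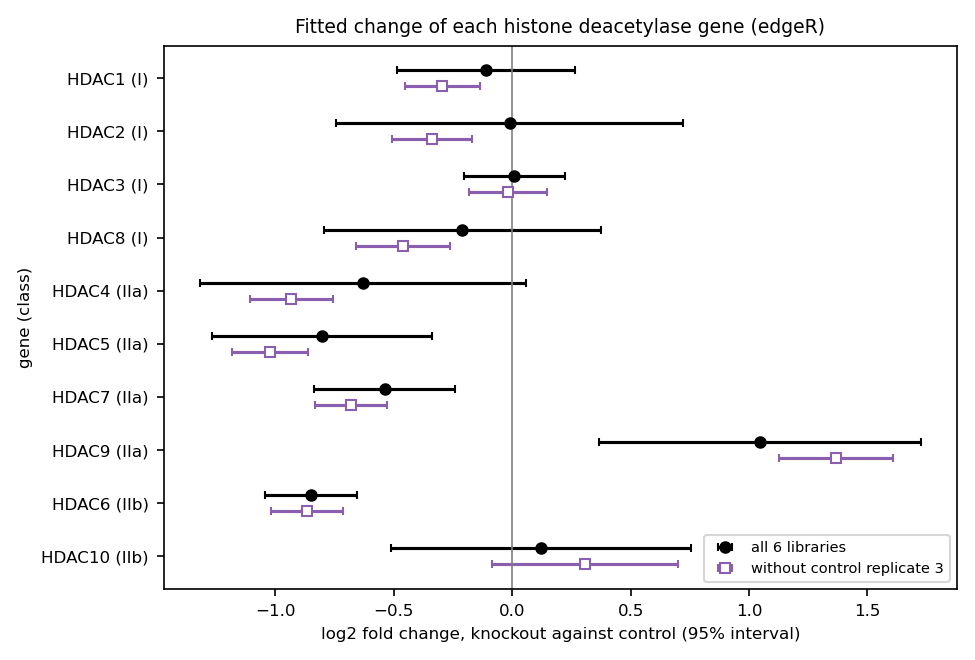
Log2 fold change of each deacetylase in FAM60A-knockout against control cells (x axis, log2 scale) with its 95% interval, fitted with all 6 libraries and again without control replicate 3. HDAC5, HDAC6 and HDAC7 lie below 0 in both fits, HDAC9 lies above 0 in both, and the intervals of HDAC1, HDAC2, HDAC4 and HDAC8 leave 0 only without control replicate 3.

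Promoter sequences are shown for HDAC6 and HDAC7, which fell, and for HDAC9, the member with the largest positive fold change. Each is a RefSeq window of 300 bases on GRCh38.p14, 250 before to 50 after a transcript start, read 5′ to 3′ on the gene's strand. Such windows were found for 9 of the 10 members, and for 8 of them a window was placed on the start of the canonical transcript. HDAC5, which also fell, had no window, and none of the HDAC4 windows was placed on its canonical start. For HDAC6, HDAC7 and the canonical start of HDAC9, capitals mark the GC box, GGGCGG on either strand. In the upstream window of HDAC9 they mark CTA and TAG with any 4 bases between them. This form is looser than the site that MEF2 factors bind, so a match is called MEF2-like. The HDAC6 window is chrX:48801817-48802116 on the plus strand, HDAC7 is chr12:47819854-47820153 on the minus strand, and the canonical and upstream windows of HDAC9 are chr7:18495499-18495798 and chr7:18086575-18086874 on the plus strand.
HDAC6: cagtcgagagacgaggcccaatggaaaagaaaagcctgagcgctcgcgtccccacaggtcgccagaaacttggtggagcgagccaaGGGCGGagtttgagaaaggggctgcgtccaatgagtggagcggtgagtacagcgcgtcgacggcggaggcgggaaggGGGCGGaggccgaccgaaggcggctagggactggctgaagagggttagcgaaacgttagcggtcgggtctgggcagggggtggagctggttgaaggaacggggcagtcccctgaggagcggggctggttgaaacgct
HDAC7: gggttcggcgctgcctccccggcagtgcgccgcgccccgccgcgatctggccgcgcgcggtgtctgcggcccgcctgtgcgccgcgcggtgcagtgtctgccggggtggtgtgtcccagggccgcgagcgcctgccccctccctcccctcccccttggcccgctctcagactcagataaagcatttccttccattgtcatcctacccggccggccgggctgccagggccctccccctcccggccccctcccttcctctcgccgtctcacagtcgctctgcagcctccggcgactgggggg
HDAC9 canonical: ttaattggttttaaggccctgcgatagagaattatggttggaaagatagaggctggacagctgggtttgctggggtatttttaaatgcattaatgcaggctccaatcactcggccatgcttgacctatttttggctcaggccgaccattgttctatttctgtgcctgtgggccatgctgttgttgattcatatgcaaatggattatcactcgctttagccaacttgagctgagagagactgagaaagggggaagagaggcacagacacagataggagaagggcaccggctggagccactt
HDAC9 upstream: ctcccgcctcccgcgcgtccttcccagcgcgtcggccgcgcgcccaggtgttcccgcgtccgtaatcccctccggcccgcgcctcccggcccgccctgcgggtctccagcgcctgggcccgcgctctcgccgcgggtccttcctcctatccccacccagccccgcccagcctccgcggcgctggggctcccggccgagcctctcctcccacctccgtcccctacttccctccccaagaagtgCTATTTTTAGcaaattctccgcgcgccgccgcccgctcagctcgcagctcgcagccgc
The HDAC6 window held 2 GC boxes, 2 CCAAT boxes (either strand) and 27 CpG dinucleotides. The HDAC7 window held 33 CpG with a GC content of 74.7%, and no GC box. For HDAC9, the canonical window had 5 CpG and a GC content of 47.3%, with 2 CCAAT boxes and no GC box, whereas the upstream window had 41 CpG, a GC content of 75.0%, 3 GC boxes and 1 MEF2-like match. The deposited counts are per gene and do not separate these starts. Among 34943 such windows of the genome, 44.9% held a GC box, 34.6% a CCAAT box and 2.74% the MEF2-like form, and the median number of CpG was 14 (quartiles 4 and 28). Across the other members with a canonical window, HDAC1 had 6 GC boxes, HDAC10 had 4, HDAC3 had 3, and HDAC2 and HDAC8 had none. The canonical windows of HDAC8 and HDAC9 were the ones with fewer than 10 CpG. These matches are descriptions of sequence and do not mark a bound site.

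To compare genes with each other, CPM was divided by the length of the canonical transcript in kilobases. On this per-kilobase scale, class I enzymes were the most abundant deacetylases in control cells. HDAC1 was highest at 106 ± 20.9 CPM per kb (SD, n = 3), followed by HDAC3 at 64.7 ± 4.12 and HDAC2 at 61.8 ± 24.4. HDAC3 and HDAC2 overlapped between libraries and cannot be ordered. The order of the genes depends on the length used. In CPM without this scaling, HDAC2 was above HDAC1, at 602 ± 238 against 225 ± 44.3 in control libraries. Lengths of all exons merged were tried for the class sums only. The next tier held the class II members HDAC7 (14.4 ± 2.06 CPM per kb), HDAC6 (13.2 ± 0.256) and HDAC5 (11.4 ± 2.77), of which HDAC7 and HDAC6 overlapped, as did HDAC6 and HDAC5. HDAC8 at 4.04 ± 1.16 CPM per kb was the lowest class I enzyme, and HDAC4 stood at 1.89 ± 0.687. HDAC10 (0.428 ± 0.115 CPM per kb) and HDAC9 (0.341 ± 0.130) were the lowest and overlapped.

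In knockout cells the upper part of this order was the same. HDAC1 stood at 98.5 ± 3.30 CPM per kb, HDAC3 at 65.1 ± 2.31 and HDAC2 at 61.4 ± 2.90, and of these only HDAC3 and HDAC2 overlapped. HDAC7, HDAC6 and HDAC5 separated into 9.93 ± 0.178, 7.34 ± 0.139 and 6.52 ± 0.446 CPM per kb. HDAC8 at 3.49 ± 0.0549 and HDAC4 at 1.22 ± 0.0382 kept their places. At the bottom HDAC9, at 0.704 ± 0.0320 CPM per kb, stood above HDAC10 at 0.465 ± 0.0775.

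**Figure D2:**
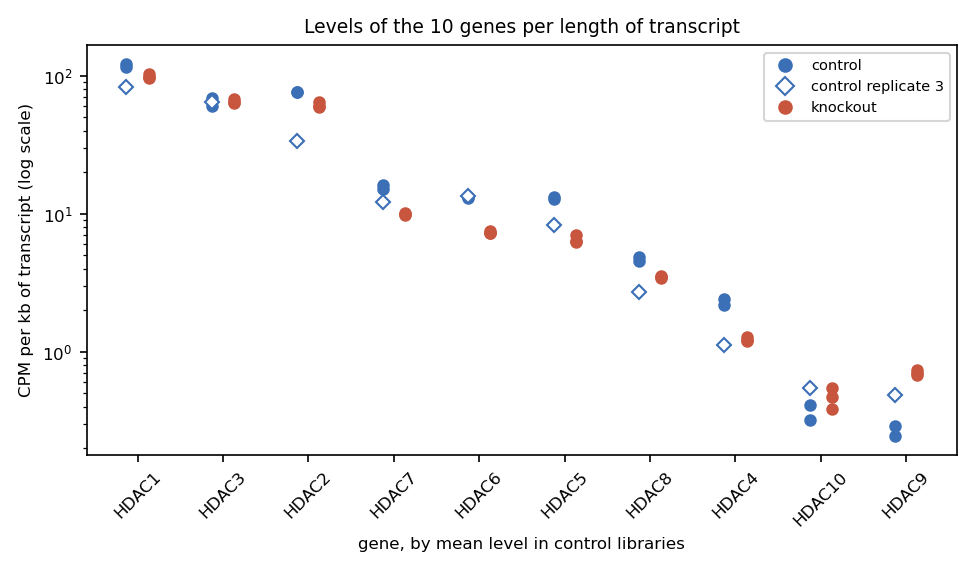
Level of each deacetylase in CPM per kb of canonical transcript (y axis, log scale), with 1 point per library for 3 control and 3 FAM60A-knockout libraries, an open diamond for control replicate 3, and genes ordered by their mean in the controls. HDAC1, HDAC2 and HDAC3 sit above all other members in every library, and HDAC9 and HDAC10 sit below 1 CPM per kb.

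Among the class I genes, no member was called with all libraries. HDAC1 (ENSG00000116478, chromosome 1 of GRCh37 from 32757684 to 32799236, plus strand) is a catalytic subunit of the Sin3/HDAC complex. It was measured at 244, 257 and 175 CPM in control replicates 1, 2 and 3, and at 208, 216 and 202 CPM in the knockout libraries. The knockout libraries lay below control replicates 1 and 2 and above control replicate 3. The log2 fold change was -0.11 (SE 0.16, 95% interval -0.49 to 0.27, edgeR adjusted p = 0.652). Without control replicate 3 it was -0.30 (-0.45 to -0.14, edgeR adjusted p = 0.00189), and over 13 alternative fits the adjusted p ran from 0.00189 to 0.980.

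HDAC2 (ENSG00000196591, chromosome 6 from 114254192 to 114332472, minus strand), the paralog of HDAC1, had the widest spread of the controls on the log2 scale among class I genes. Its level was 738 and 741 CPM in control replicates 1 and 2 but 327 CPM in control replicate 3, with 629, 590 and 574 CPM in the knockout. The knockout values fell between the extremes of the controls. Accordingly the log2 fold change was -0.01 (SE 0.30, 95% interval -0.74 to 0.72, edgeR adjusted p = 0.984), and without control replicate 3 it was -0.34 (-0.51 to -0.17, edgeR adjusted p = 0.00106). The adjusted p ran from 0.00106 to 0.994 over the alternatives. With all libraries, the interval allowed changes of either sign.

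HDAC3 (ENSG00000171720, chromosome 5 from 141000443 to 141016416, minus strand), the enzyme of the NCoR and SMRT complexes, was the member with the closest group means. Control libraries gave 117, 133 and 125 CPM and knockout libraries gave 123, 131 and 124 CPM. The groups overlapped throughout, and control replicate 3 was not separate here. The log2 fold change was 0.0088 (SE 0.09, 95% interval -0.20 to 0.22, edgeR adjusted p = 0.956), and without control replicate 3 it was -0.02 (-0.18 to 0.14). A 2-fold change of HDAC3 in either direction lay outside both intervals.

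HDAC8 (ENSG00000147099, chromosome X from 71549366 to 71792951, minus strand), the deacetylase of SMC3, was measured at 7.99, 8.50 and 4.75 CPM in control and 6.22, 6.03 and 6.11 CPM in knockout libraries. As for HDAC1 and HDAC2, control replicate 3 lay below the knockout libraries and the other controls lay above them. The log2 fold change was -0.21 (SE 0.24, 95% interval -0.80 to 0.37, edgeR adjusted p = 0.577) and -0.46 without control replicate 3 (-0.66 to -0.26, edgeR adjusted p = 0.000224). Its adjusted p lay between 0.000224 and 0.912 over the alternatives.

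Class IIa genes were lower in the knockout at HDAC5 and HDAC7. HDAC5 (ENSG00000108840, chromosome 17 from 42154114 to 42201070, minus strand) is a MEF2 corepressor that leaves the nucleus when phosphorylated. It was measured at 67.8, 70.3 and 43.7 CPM in the controls and at 33.7, 37.4 and 33.0 CPM in the knockout libraries. Every knockout library was below every control, with control replicate 3 nearest to them. HDAC5 fell by 0.80 on the log2 scale (SE 0.19, 95% interval -1.27 to -0.34, edgeR adjusted p = 0.0379). Over 13 alternative fits the adjusted p ran from 1.89e-10 to 0.158 and the call held in 7. Of the 6 fits that left out 1 library, the call held only without control replicate 3, where the log2 fold change was -1.02. Exons of G6PC3, on the opposite strand, overlap those of HDAC5 and carried 7563 to 11388 counts. The strand setting of the authors' counting is not given in the sources used here, so reads of the 2 genes may not be fully separated.

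HDAC7 (ENSG00000061273, chromosome 12 from 48176505 to 48226915, minus strand), a class IIa protein known for its part in developing T cells and blood vessels, had the largest class IIa level per kilobase in each of the 6 libraries. The controls gave 63.8, 67.5 and 51.0 CPM and the knockout libraries 41.0, 42.2 and 42.3 CPM. Again the groups did not overlap. HDAC7 fell by 0.54 on the log2 scale (SE 0.12, 95% interval -0.84 to -0.24, edgeR adjusted p = 0.0344). The adjusted p ran from 5.32e-08 to 0.154 over the 13 alternatives, with the call held in 6. When 1 library was left out it held only without control replicate 3, at a log2 fold change of -0.68. SLC48A1, whose exons overlap on the opposite strand, had 1551 to 2304 counts.

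HDAC4 (ENSG00000068024, chromosome 2 from 239969864 to 240323348, minus strand), the class IIa protein known for restraining chondrocyte hypertrophy, was at 20.2 and 18.4 CPM in control replicates 1 and 2 and at 9.39 CPM in control replicate 3. Knockout libraries gave 10.1, 10.2 and 10.7 CPM. Control replicate 3 was thus below all 3 knockout libraries, which in turn lay well below the other controls. The log2 fold change was -0.63 (SE 0.29, 95% interval -1.32 to 0.06, edgeR adjusted p = 0.175), and -0.93 without control replicate 3 (-1.11 to -0.76, edgeR adjusted p = 3.58e-09). Across the alternatives its adjusted p lay between 3.58e-09 and 0.383.

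HDAC9 (ENSG00000048052, chromosome 7 from 18126572 to 19042039, plus strand) encodes a class IIa protein and MEF2 corepressor, and in control cells shared the lowest levels per kilobase with HDAC10, with which it overlapped. It had 278, 232 and 466 counts in the control libraries and 581, 585 and 644 in the knockout libraries, or 2.86, 2.42 and 4.82 CPM against 6.90, 6.67 and 7.29 CPM. All knockout libraries were above all controls, and control replicate 3 was the highest of the controls. The log2 fold change was 1.05 (SE 0.28, 95% interval 0.37 to 1.73), with an unadjusted p of 0.00882 and an adjusted p of 0.0516 by edgeR. DESeq2 gave an adjusted p of 0.0038 and limma-voom 0.0195, and without control replicate 3 the log2 fold change was 1.37 (edgeR adjusted p = 1.25e-09). Over the 13 alternatives the adjusted p ran from 1.25e-09 to 0.175, and HDAC9 was called in 3.

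HDAC6, of class IIb, was the member whose groups were farthest apart relative to their spread. HDAC6 (ENSG00000094631, chromosome X from 48659784 to 48683392, plus strand), the tubulin deacetylase, had 5290, 5129 and 5362 counts in control libraries and 2525, 2613 and 2725 in knockout libraries. These were 54.4, 53.4 and 55.5 CPM against 30.0, 29.8 and 30.9 CPM. The groups did not overlap, and control replicate 3 was the highest of the controls, 0.042 above the mean of the other two on the log2 scale. HDAC6 fell by 0.85 on the log2 scale (SE 0.08, 95% interval -1.04 to -0.65, edgeR adjusted p = 0.00404), to 55.5% of the control level. Without control replicate 3 the log2 fold change was -0.87 (edgeR adjusted p = 1.32e-09). The call held in 12 of the 13 alternatives and was lost without knockout replicate 1, at an adjusted p of 0.0534, the highest of a range that began at 7.87e-15. No annotated gene overlaps HDAC6 in the GENCODE annotation used for gene positions.

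HDAC10 (ENSG00000100429, chromosome 22 from 50683612 to 50689834, minus strand), the polyamine deacetylase, had counts of 80, 102 and 136 in control libraries and of 117, 87 and 106 in knockout libraries. These were 0.823, 1.06 and 1.41 CPM against 1.39, 0.992 and 1.20 CPM, with the groups overlapping. The log2 fold change was 0.12 (SE 0.26, 95% interval -0.51 to 0.75, edgeR adjusted p = 0.778). Without control replicate 3 it was 0.31 (-0.08 to 0.70, edgeR adjusted p = 0.156), and over the alternatives the adjusted p ran from 0.156 to 0.992. Both intervals include 0. Its exons overlap those of MAPK12 on the same strand, which carried 5978 to 9743 counts, so the count of HDAC10 is uncertain.

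**Figure D3:**
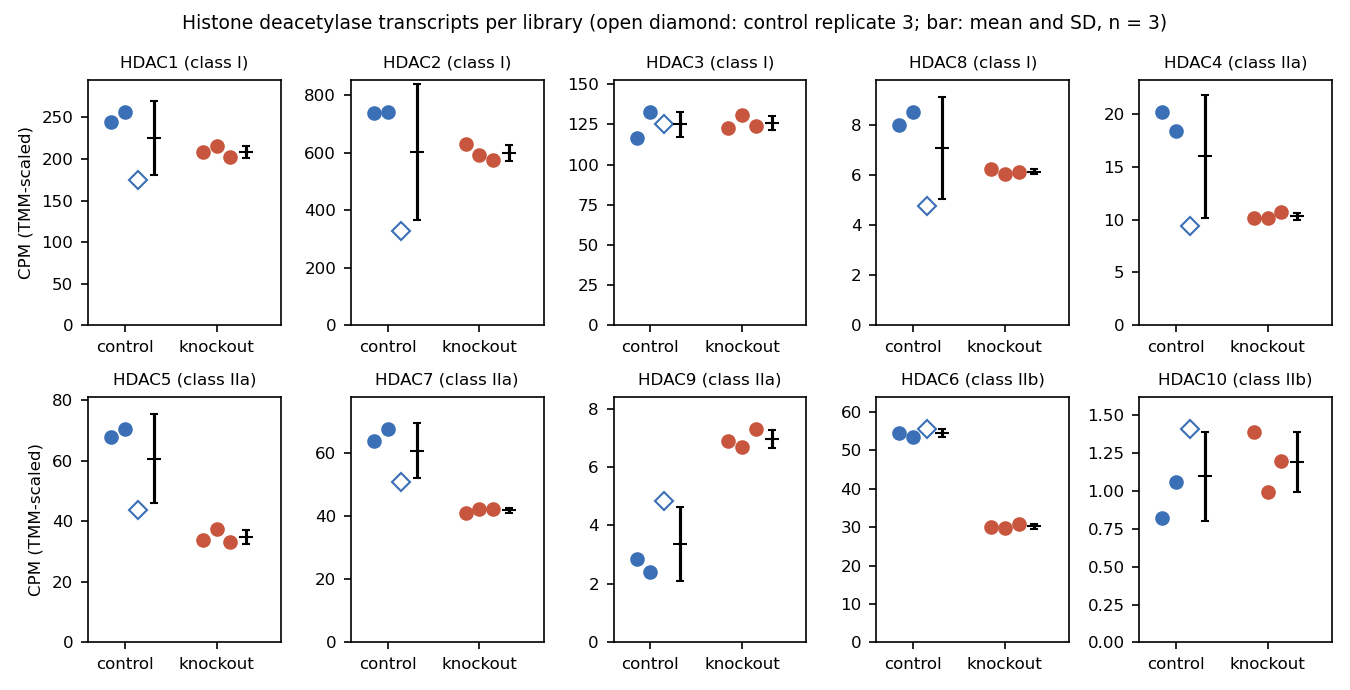
CPM (TMM-scaled) of each deacetylase in every library, with 1 panel per gene and y axes from 0. Circles are libraries, the open diamond is control replicate 3, and bars give the mean and SD (n = 3); control and knockout points are fully separated for HDAC5, HDAC6, HDAC7 and HDAC9, and for HDAC6 control replicate 3 sits with the other controls.

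The 4 members without overlap between groups, 3 lower and 1 higher in the knockout, can be read beside 41.6% of all tested genes, 20.1% lower and 21.5% higher. Against control replicates 1 and 2 alone, 8 members did not overlap with the knockout, beside 75.5% of all genes. Both shares for the members were near those for all genes. Control replicate 3 lay between the mean of the other controls and the knockout mean at HDAC3, HDAC5, HDAC7 and HDAC9, or 4 of 10 members, beside 34.7% of all genes. Beyond the knockout mean, it was lower still at HDAC1, HDAC2, HDAC4 and HDAC8, and higher still at HDAC10. Relative to the mean of control replicates 1 and 2, HDAC2 was at a log2 difference of -1.18 in control replicate 3 and -0.31 in the knockout. HDAC4 was at -1.04 in control replicate 3 and -0.90 in the knockout, and HDAC9 was at 0.87 and 1.40. HDAC6 differed from this pattern, with 0.042 in control replicate 3 and -0.84 in the knockout. Between control replicate 3 and any knockout library, no member differed by 2-fold.

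**Figure D4:**
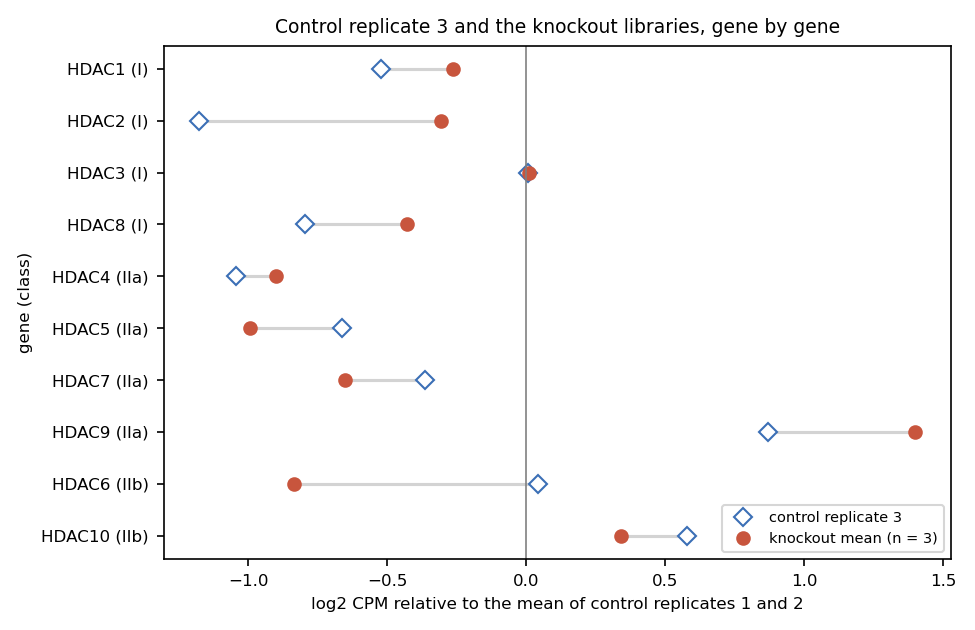
Log2 CPM of each deacetylase (1 row per gene, with its class) relative to the mean of control replicates 1 and 2 (x axis), with an open diamond for control replicate 3 and a filled circle for the mean of the 3 knockout libraries. HDAC6 has its diamond near 0 and its circle at -0.84, both symbols are below 0 for HDAC1, HDAC2, HDAC4, HDAC5, HDAC7 and HDAC8, and both are above 0 for HDAC9 and HDAC10.

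Summed by class on the per-kilobase scale, class I RNA was at 256, 271 and 184 CPM per kb in control libraries and at 230, 234 and 222 in knockout libraries. The groups overlapped because of control replicate 3, and the log2 difference was -0.03, or -0.21 without that library. Class IIa summed to 30.6, 31.7 and 21.9 CPM per kb in control libraries and 18.0, 18.9 and 18.3 in knockout libraries, a log2 difference of -0.59. Class IIb, nearly all of it HDAC6, summed to 13.5, 13.4 and 14.0 CPM per kb in control libraries and 7.82, 7.62 and 7.96 in knockout libraries, a log2 difference of -0.81. The groups did not overlap for either part of class II. These sums are descriptions, given without a test, since the members were chosen with earlier results known.

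Within the classes the makeup, on the same per-kilobase scale, also differed between libraries. HDAC1 took 44.9 ± 0.161% of the class I sum in control and 43.1 ± 0.448% in knockout libraries (SD, n = 3), although its level varied among the controls. HDAC2 took 29.6%, 28.1% and 18.3% in control replicates 1, 2 and 3, and 26.9 ± 1.11% in the knockout. As a result the ratio of HDAC1 to HDAC2 per kilobase was 1.52, 1.59 and 2.45 in control libraries and 1.52, 1.68 and 1.62 in knockout libraries. The HDAC3 share was 23.6%, 25.4% and 35.3% in control replicates 1, 2 and 3, and 28.5 ± 0.770% in the knockout. Its own level differed little, at 64.7 ± 4.12 CPM per kb in control and 65.1 ± 2.31 in knockout libraries. In class IIa, HDAC9 took 0.947%, 0.772% and 2.23% in the controls and 3.83 ± 0.243% in the knockout, so this smallest part of the class was larger where HDAC5 and HDAC7 were lower. HDAC5 took 40.3 ± 2.45% and 35.5 ± 1.60%, and HDAC7 took 51.8 ± 3.02% and 54.0 ± 1.07%, in control and knockout. HDAC6 made up 96.9 ± 0.771% of class IIb in control and 94.0 ± 0.927% in knockout libraries.

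The genes that work with these enzymes were described through 10 lists of partners, opposing enzymes and substrates, of which 109 genes were tested and 21 were called, 16 of them lower. Without control replicate 3, 79 were called, 45 lower and 34 higher, so the lean toward lower genes was smaller in that fit. The lists' counts are to be read beside the 16.6% and 65.6% of all genes above. Among the other deacetylases, HDAC11 and the sirtuins, 0 of 8 were called by edgeR, 1 had an unadjusted p under 0.05, and DESeq2 called 1. SIRT6, a nuclear NAD-dependent deacetylase, had the smallest p in that list, with a log2 fold change of -0.38 (edgeR adjusted p = 0.0597), followed by mitochondrial SIRT5 at -0.29 (0.149). Of the same list 6 of 8 were called without control replicate 3, 3 in each direction.

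Of the Sin3 subunits, which hold HDAC1 and HDAC2 in the complex that FAM60A belongs to, 5 of 15 were called, 3 lower and 2 higher, with a median log2 fold change of -0.10. The targeted gene was itself among the 3. Both scaffolds fell: SIN3A by 0.57 on the log2 scale (88.0 ± 8.75 CPM in control against 59.2 ± 2.53 in knockout libraries, edgeR adjusted p = 0.0185) and SIN3B by 0.59 (65.1 ± 1.85 against 43.1 ± 2.08 CPM, edgeR adjusted p = 0.0103). SAP30, a subunit that binds HDAC1 and SIN3A, rose by 0.54 (edgeR adjusted p = 0.0315). ING2, a reader of methylated histone H3 and the other subunit called higher, was at a log2 fold change of 0.64 (edgeR adjusted p = 0.0405). Of the 15 subunits, 13 were called without control replicate 3, 7 lower and 6 higher, and the median was 0.15.

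The number of subunits called in the other complexes of class I enzymes also turned on control replicate 3. Of 11 NuRD subunits 1 was called, MBD3, with a log2 fold change of -0.56 (edgeR adjusted p = 0.0483), and MTA3 was at -0.57 (0.0572). With control replicate 3 left out, 9 of the 11 were called, 7 lower and 2 higher. The CoREST and MiDAC list had 3 of 9 called, all lower. DNTTIP1, the MiDAC subunit that joins HDAC1 or HDAC2 into that complex, fell by 0.93 on the log2 scale, from 56.5 ± 5.86 to 29.7 ± 2.57 CPM (edgeR adjusted p = 0.00835). RCOR3, a CoREST scaffold, fell by 0.45 (edgeR adjusted p = 0.0320) and HMG20B by 0.48 (edgeR adjusted p = 0.0463). In that list 8 of 9 were called without control replicate 3, 3 lower and 5 higher. Of the 5 NCoR and SMRT subunits, the partners of HDAC3, 1 was called: NCOR1 fell by 0.53, from 141 ± 12.4 to 98.0 ± 3.99 CPM (edgeR adjusted p = 0.0195). TBL1X had a log2 fold change of -0.41 (0.217), and 2 of the 5 were called without control replicate 3, 1 in each direction.

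Among genes tied to class II, 3 of 16 tested partners and kinases of class IIa proteins were called, all lower. They were CAMK2G, a kinase of class IIa deacetylases (log2 fold change -0.57, edgeR adjusted p = 0.0139), MEF2A, a transcription factor they repress (-0.41, 0.0322), and RFXANK, an ankyrin-repeat protein that binds them (-0.54, 0.0355). Of 10 HDAC6 partners and tubulin acetylation genes, 2 were called, in opposite directions. HSP90AA1, a chaperone that HDAC6 deacetylates, rose by 0.88 on the log2 scale, from 3179 ± 497 to 5841 ± 469 CPM (edgeR adjusted p = 0.0151). ATAT1, the alpha-tubulin acetyltransferase that opposes HDAC6, had 2801, 2911 and 1482 counts in control and 965, 1129 and 1075 in knockout libraries. Control replicate 3 was again the control nearest to the knockout, and ATAT1 fell by 1.03 (SE 0.26, edgeR adjusted p = 0.0450). Neither gene was called by limma-voom, which called 0 of this list. With control replicate 3 left out, edgeR called 12 of 17 class IIa partners and kinases, 6 in each direction, and 6 of the 10 HDAC6 partners, 2 lower and 4 higher.

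For the substrates of HDAC10 and HDAC8, 3 of 11 polyamine genes and 1 of 11 cohesin genes were called. SMOX, which oxidises spermine, fell by 0.71 on the log2 scale (edgeR adjusted p = 0.0161) and OAZ1, the antizyme that limits ornithine decarboxylase, fell by 0.44 (edgeR adjusted p = 0.0357). SRM, spermidine synthase, rose by 0.65 (edgeR adjusted p = 0.0392). RAD21, the cleavable cohesin subunit, rose by 0.60, from 225 ± 13.1 to 340 ± 12.9 CPM (edgeR adjusted p = 0.0119), while STAG1 was at -0.38 (0.0987). Of the 13 lysine acetyltransferases, which add the groups that deacetylases remove, 2 were called, both lower: KAT2A (-0.39, edgeR adjusted p = 0.0309) and NCOA1 (-0.42, edgeR adjusted p = 0.0449). The calls without control replicate 3 were 9 polyamine genes (5 lower, 4 higher), 5 cohesin genes (4 lower, 1 higher) and 9 acetyltransferases (7 lower, 2 higher). Each of the 21 calls in these lists was lost in at least 1 of the fits that left out a library, where as few as 0 of them held.

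Of 10217 genes whose mean level reached 10 CPM, those whose log2 CPM followed HDAC1 most closely over the 6 libraries were ANXA2 (Pearson r = 0.998), JOSD2 (0.998) and ZW10 (0.997). ANXA2, a calcium-dependent membrane-binding protein, had 18257 and 19033 counts in control replicates 1 and 2, 8444 in control replicate 3 and 10517 to 12421 in the knockout libraries. JOSD2 is a deubiquitinase and ZW10 a kinetochore protein. The order shared with HDAC1 was high values in control replicates 1 and 2, intermediate values in the knockout and the lowest value in control replicate 3. An r of at least 0.95 was reached by 463 genes, or 4.53% of those compared. The 6 points share the depth and composition of their libraries, so these correlations are descriptions of the libraries.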

How the data were processed

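The samples were 3 libraries of control HEK293 cells and 3 of FAM60A-knockout cells. The authors deposited unnormalized whole-number read counts per Ensembl gene. Their methods describe poly(A) selection with strand-specific library preparation, trimming with Trimmomatic, and Salmon on hg38, whereas the submitters' processing notes name STAR 2.7.10b, featureCounts 2.0.0 and hg38, and the labels name hg19. The annotation release and the strand setting of the counting are not given in the sources used here. Strand and aligner choices could move counts of genes with overlapping exons. All columns belonged to a sample, and 60878 of the 62754 genes were matched to a symbol.

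Counts were tested with edgeR 4.0.16 in R 4.3.3, using TMM scaling, filterByExpr with a minimum count of 10, and a quasi-likelihood F-test (two-sided) with Benjamini-Hochberg adjustment over 20992 genes. A call was an adjusted p of at most 0.05. The common dispersion was 0.0854 and the prior degrees of freedom were 2.44. The authors' methods name limma, which was run as an alternative. On simulated data, 192 of 200 genes changed by 3 on the log2 scale were called among 21031 genes, with 7 false calls. The simulation gave every gene the common dispersion and set no library apart. It therefore does not cover smaller changes, such as those of the members, or the spread of control replicate 3. CPM was per 1000000 counts of TMM-scaled library size, and levels per kilobase used the canonical transcript of GENCODE 44 lifted to GRCh37. Total counts of 88361827 to 93346824 set the counting precision, and any interval is from the fit.

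The members and gene lists were chosen with earlier results of these data known. Named genes were the 10 members, SINHCAF, up to 4 called genes per partner list by smallest p (the 2 smallest p where fewer than 2 were called), and the 3 genes closest to HDAC1. Marker genes were named to give values beside the results. Since the members were chosen in this way, class sums are given without a test.

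Alternatives were DESeq2 1.42.0, library size without TMM, quantile normalization with limma-voom 3.58.1, 2 other filters on low counts, leaving out each library, the replicate number as a block, and, chosen after seeing the data, leaving out mitochondrial genes and merging all exons for gene length. Replicate numbers were checked for pairing and did not pair the libraries. Tables were made with pandas 2.3.3, scipy 1.17.1 and numpy 2.4.6 in Python 3.11.15, and figures with matplotlib 3.10.9. Proteomic, immunoblot and chromatin data were not analysed here.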

Additional observations from a re-analysis of the deposited data

How the results depend on the processing

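With edgeR's quasi-likelihood test, leaving out 1 library at a time moved the members called between 0 and 8, those lower between 0 and 7, those higher between 0 and 1, all genes called between 167 and 14221 and partner-list genes called between 0 and 79. The largest counts came without control replicate 3 and the smallest member count and all-gene count without knockout replicate 1. All of these fits held fewer libraries than the main fit. Ranges of the log2 fold change over these fits were -0.30 to -0.0099 for HDAC1, -0.34 to 0.16 for HDAC2, -0.066 to 0.051 for HDAC3, -0.93 to -0.46 for HDAC4, -1.02 to -0.69 for HDAC5, -0.88 to -0.83 for HDAC6, -0.68 to -0.46 for HDAC7, -0.46 to -0.061 for HDAC8, 0.85 to 1.37 for HDAC9, -0.075 to 0.31 for HDAC10 and -0.92 to -0.78 for SINHCAF. The log2 differences ranged from -0.30 to 0.044 for the HDAC1 to HDAC2 ratio, -0.21 to 0.074 for class I, -0.76 to -0.49 for class IIa and -0.82 to -0.79 for class IIb. HDAC2 was at 0.0046 with limma-voom, and HDAC3 at -0.0096 with DESeq2 and -0.10 for library size without TMM, which shifted the median of all genes to -0.12 and put class IIb at -0.92. HDAC9 was called at 1.03 with DESeq2 (adjusted p 0.0038) and limma-voom (0.0195), so members called higher were 1 in each. Without a filter HDAC7 was at -0.54 (adjusted p 0.0524) and 11 partner-list genes were called. Replicate numbers did not pair the libraries (correlations of same-numbered deviations 0.0101, 0.0306 and -0.0362). With the replicate block, HDAC2 was at 0.079, HDAC5 at -0.77 (0.0719), HDAC7 at -0.53 (0.0888) and SINHCAF at -0.84 (0.0551). The block left 1 member called, 1 lower, 407 of all genes and 1 partner-list gene. Unless stated, the cause was not tested. HDAC10, at 80 to 136 counts per library, had the fewest counts of the members.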
